A study of Homo sapiens with 12 samples.

Results

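Voltage gated calcium channels were examined in DU145 spheroids through 10 of their subunit genes, out of 26485 genes in the count table. The genes were picked by symbol: CACNA2D1, CACNA2D2, CACNA2D3 and CACNA2D4 encode α2δ subunits, CACNA1A, CACNA1C, CACNA1D and CACNA1H encode pore-forming α1 subunits, and CACNB1 and CACNB3 encode β subunits. CACNA2D1 heads the set because its own counts were close to 0 in the line that re-expressed α2 integrin, so its values in that line are given as a description, without a test. DU145 is a human prostate carcinoma cell line. Messenger RNA was sequenced from 3 lines with 4 biological replicates each.

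All 3 lines descend from DU145KO, cells in which ITGA2, the gene of α2 integrin, had been disrupted with Crispr/Cas9. DU145KO received no further construct, DU145KO+α2 carried α2 integrin cDNA in the pAWneo2 plasmid, and DU145KO+vector carried the empty plasmid. Both transfected lines were stable transfectants kept in geneticin, which is not stated for DU145KO. Whether each line was 1 clone or a mixed population is not stated, so a difference between lines can also be a difference between derivations. All lines were grown for 72 h as spheroids of 8000 cells in serum-free medium, and no parental DU145 spheroids are among the 12 samples.

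A voltage gated calcium channel opens when the membrane depolarises and lets calcium enter the cell through the α1 subunit, whose identity sets whether the current is of the L, P/Q, N or T type. Most α1 subunits are brought to the membrane with the help of a cytosolic β subunit and an α2δ subunit, a glycosylated protein on the outer face of the membrane. The α2δ-1 and α2δ-2 subunits are the binding sites of gabapentin and pregabalin. The "α2" of α2δ is not α2 integrin, although both proteins hold a von Willebrand factor A domain. Best known from neurons, muscle and endocrine cells, these channels are also transcribed in many carcinoma lines.

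Libraries held 13948734 to 19988111 counted reads, with a median of 16446500.5. Levels are given in CPM, read counts scaled to a common library size after TMM normalisation, and 3 counts, taken here as the detection floor, correspond to 0.150 to 0.215 CPM. ITGA2 followed the labels, at 259 to 332 CPM where it was re-expressed, against 15.7 to 25.8 CPM in the knockout and 13.0 to 20.2 CPM with the empty vector. All 5 epithelial markers (EPCAM, CDH1, KRT8, KRT18 and KRT19) were above the floor in every sample. Their summed CPM was lower with α2 integrin, at 860 to 1154, than in the knockout, at 1211 to 1584, and overlapped that with the empty vector, at 1142 to 1387, and its part in the results was not tested. Of 4 neuronal or neuroendocrine markers, SYP and SNAP25 were above it in every sample while CHGA and RBFOX3 never passed it, and the summed CPM of these 4 was 5.74 to 8.20 for DU145KO, 6.45 to 8.45 for DU145KO+α2 and 5.65 to 7.04 for DU145KO+vector. None of 4 muscle markers was above the floor in every sample. Of 5 fibroblast, 4 endothelial and 4 leukocyte markers, 1, 2 and 1 were above the floor in every sample. These were COL1A1 (111 to 209 reads), PECAM1 (8 to 22) with KDR (10 to 50), and CD68 (778 to 1464).

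The promoter windows of CACNA2D1 and CACNA1D are printed because these genes differed in opposite directions in DU145KO+α2. Each is the 250 bases before the start of the RefSeq entry on GRCh38.p14, 5′ to 3′ on the strand of the gene, with GC boxes in capitals (GGGCGG, or CCGCCC for the other strand; overlapping boxes run together). CACNA2D1 lies at chr7:82443957-82444206 on the minus strand and CACNA1D at chr3:53494361-53494610 on the plus strand.
CACNA2D1: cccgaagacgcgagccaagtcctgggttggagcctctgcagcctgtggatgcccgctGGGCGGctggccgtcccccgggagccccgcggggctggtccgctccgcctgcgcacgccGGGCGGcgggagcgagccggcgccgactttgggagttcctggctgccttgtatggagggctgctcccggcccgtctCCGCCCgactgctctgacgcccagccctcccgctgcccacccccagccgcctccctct
CACNA1D: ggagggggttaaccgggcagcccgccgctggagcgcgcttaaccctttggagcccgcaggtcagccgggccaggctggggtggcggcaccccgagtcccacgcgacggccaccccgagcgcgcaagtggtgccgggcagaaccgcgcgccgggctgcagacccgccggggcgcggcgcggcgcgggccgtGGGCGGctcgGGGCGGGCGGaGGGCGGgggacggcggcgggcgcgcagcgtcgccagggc
Both windows were rich in CpG, with 27 CpG and 75.6% G+C for CACNA2D1 and 41 CpG and 81.6% G+C for CACNA1D, against medians of 11 CpG and 58.0% over 35116 RefSeq promoters. The CACNA2D1 window held 3 GC boxes and that of CACNA1D held 4, and 42.6% of all promoters held at least 1. Neither held the letters TATAAA or CCAAT, searched on both strands and found in 10.7% and 32.0% of promoters. RefSeq promoters were matched for 8 of the 10 genes, the others being CACNA2D4 and CACNA1H. For CACNA1D the GENCODE annotation begins the gene farther upstream, at base 53328963 of chromosome 3, and gene counts do not tell which start was used.

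CACNA2D1, the α2δ-1 gene, was expressed at a low level in both α2 integrin negative lines and was close to silent in DU145KO+α2. DU145KO replicates 1 to 4 held 24, 15, 18 and 18 reads, or 1.59, 0.916, 1.11 and 1.05 CPM. DU145KO+vector held 21, 9, 8 and 7 reads, or 1.16, 0.646, 0.460 and 0.482 CPM. DU145KO+α2 held 0, 1, 0 and 0 reads, the single read being 0.05 CPM. Every sample of both negative lines was above the floor of 3 counts and every DU145KO+α2 sample was below it, without overlap. Over all genes tested, 17.2% did not overlap between DU145KO+α2 and DU145KO+vector and 12.9% between DU145KO+α2 and DU145KO. Between DU145KO+vector and DU145KO the share was 8.76%. These shares apply to each lack of overlap given below. In bulk RNA, fewer expressing cells and less RNA per cell cannot be told apart.

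**Figure D1:**
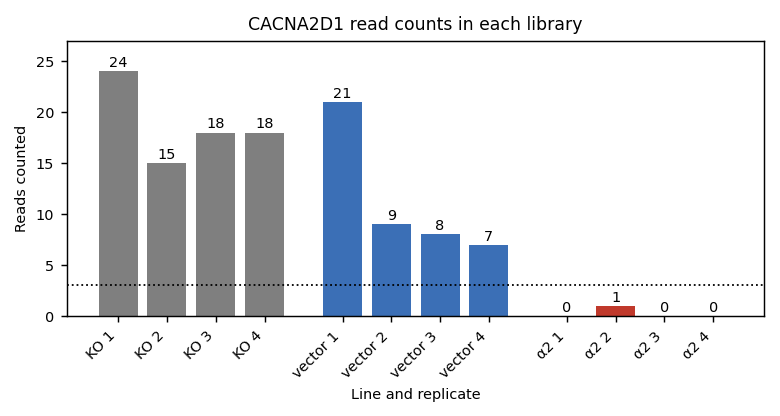
Reads counted for CACNA2D1 in each of the 12 libraries (vertical axis, number of reads; horizontal axis, line and replicate; KO is DU145KO, vector is DU145KO+vector and α2 is DU145KO+α2). The dotted line marks the floor of 3 counts, which the 8 libraries without α2 integrin exceeded with 7 to 24 reads and the 4 α2 libraries did not reach, with 0 to 1.

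Scaled to library size, at the mean level of DU145KO+vector, the 4 DU145KO+α2 libraries would have held 11.1, 13.8, 11.7 and 10.8 reads. At the mean level of DU145KO they would have held 18.8, 23.3, 19.7 and 18.3 reads. The summed reads, 45 in DU145KO+vector and 1 in DU145KO+α2, gave a ratio of 48.4 per library size, with an exact 95% interval of 8.26 to 1955. Against DU145KO, with 75 reads, the ratio was 79.5, with an interval of 13.8 to 3183. These intervals describe counting error alone, are wide because the lower count is a single read, and are no test, since CACNA2D1 was picked on these counts.

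Between the lines without α2 integrin, CACNA2D1 was lower in DU145KO+vector by 0.73 on the log2 scale (SE 0.34). The difference did not pass the edgeR quasi-likelihood test (adjusted p = 0.333, and 0.0954 with the replicate number as a block). Leaving out each sample in turn gave log2 fold changes of −1.13 to −0.54. All 4 DU145KO samples reached the 0.608 CPM that the filter for the test asked for, and 2 of the 4 DU145KO+vector samples did. The filter thus favoured a lower value in DU145KO+vector. The groups overlapped, since DU145KO+vector replicate 1 stood with the DU145KO samples while its other 3 replicates lay below all of them. CACNA2D1 spans 81946444 to 82443956 on the minus strand of chromosome 7 (GRCh38, GENCODE version 44), and none of its exon bases was shared with another gene that was counted. Annotated genes without counts here were not searched.

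CACNA2D2, the α2δ-2 gene and a second target of gabapentin, was the most abundant α2δ gene in every line, also per length. The DU145KO samples had 25.0, 16.6, 17.8 and 17.2 CPM, the DU145KO+vector samples 17.6, 16.4, 14.6 and 15.1 CPM, and the DU145KO+α2 samples 22.4, 21.6, 22.2 and 18.3 CPM. All DU145KO+α2 samples lay above all DU145KO+vector samples, and DU145KO overlapped both. The difference from DU145KO+vector was 0.41 on the log2 scale (SE 0.13, 95% interval 0.14 to 0.68). With an adjusted p of 0.0439 in edgeR's test it stayed under the 2-fold change that a call also required here. Against DU145KO it was 0.14 (SE 0.13, adjusted p = 0.576).

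CACNA2D4, the α2δ-4 gene known from photoreceptors, was scarce and was lower in DU145KO+α2. The libraries of DU145KO held 17, 16, 10 and 27 reads, those of DU145KO+vector 14, 9, 13 and 16 reads, and those of DU145KO+α2 5, 3, 5 and 7 reads. In CPM these were 0.615 to 1.58, 0.646 to 1.10 and 0.150 to 0.446, so DU145KO+α2 lay below both other lines without overlap, with replicate 2 at the floor. The fall was 1.45 on the log2 scale against DU145KO+vector (log2 fold change −1.45, SE 0.40, adjusted p = 0.0249, edgeR) and larger against DU145KO (−1.85, SE 0.38, adjusted p = 0.00574). The first call rested on few reads and was lost on leaving out DU145KO+α2 replicate 1 (−1.48, adjusted p = 0.0515), replicate 2 (−1.21, adjusted p = 0.0763) or replicate 3 (−1.45, adjusted p = 0.0608), or DU145KO+vector replicate 4 (−1.29, adjusted p = 0.0763). CACNA2D4 entered the test through the lines where it was higher: all 4 samples of DU145KO and all 4 of DU145KO+vector reached the 0.608 CPM that the filter asked for, and 0 of the 4 DU145KO+α2 samples did, so a fall was the direction the filter favoured. DU145KO+vector and DU145KO differed by −0.40 (SE 0.32, adjusted p = 0.636).

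CACNA2D3, the α2δ-3 gene, had 1 to 3 reads in every library and thus never exceeded the floor, and no difference was detectable at this depth. CACNA2D2 was thus the only α2δ gene with more than 27 reads in any library.

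CACNA1D encodes the pore of the L-type channel Cav1.3, which opens at more negative potentials than other L-type channels and serves in hair cells, pacemaker cells and endocrine cells. It was the only gene of the set called higher in DU145KO+α2 by the rule of a change above 2-fold and an adjusted p under 0.05. DU145KO+α2 had 9.69, 8.25, 11.5 and 7.07 CPM (156, 165, 194 and 111 reads). DU145KO had 5.82, 3.85, 4.0 and 4.45 CPM (88, 63, 65 and 76 reads). DU145KO+vector had 3.16, 2.08, 3.16 and 2.07 CPM (57, 29, 55 and 30 reads). The 3 lines did not overlap, with DU145KO+α2 highest, DU145KO between and DU145KO+vector lowest.

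The rise of CACNA1D was 1.78 on the log2 scale against DU145KO+vector (SE 0.20, adjusted p = 5.449e-05, edgeR) and 1.01 against DU145KO (SE 0.19, adjusted p = 0.00327). The second value lay just past the 2-fold limit. It fell under that limit, with adjusted p still under 0.05, on leaving out DU145KO replicate 2 (0.94) or 3 (0.96) or DU145KO+α2 replicate 1 (0.98) or 3 (0.90). DU145KO+vector was below DU145KO by 0.77 (log2 fold change −0.77, SE 0.21, adjusted p = 0.0681), and with the replicate number as a block the adjusted p was 0.00314 at a change still under 2-fold. The kit keeps strand but the strand setting of the counting is not stated, and 7.29% of the CACNA1D exon bases lie opposite exons of CHDH, a choline dehydrogenase gene with 149 to 353 reads per library. CHDH had log2 fold changes of 0.54 against DU145KO+vector and 0.39 against DU145KO, neither of them called, and its part in the CACNA1D counts was not tested.

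CACNA1H encodes Cav3.2, a T-type pore that opens near the resting potential. Its libraries held 31, 33, 42 and 23 reads in DU145KO, 25, 27, 20 and 15 reads in DU145KO+vector and 13, 18, 14 and 15 reads in DU145KO+α2. In CPM these were 1.35 to 2.58, 1.03 to 1.94 and 0.807 to 0.955, so DU145KO+α2 lay below both lines without overlap. Of all genes tested, 8.8% lay below DU145KO+vector in this way and 7.43% below DU145KO. CACNA1H fell by 1.19 on the log2 scale against DU145KO (SE 0.26, adjusted p = 0.00899, edgeR). Against DU145KO+vector the value was −0.65 (SE 0.27, 95% interval −1.22 to −0.07) and was not called (adjusted p = 0.151). The difference between DU145KO+vector and DU145KO was −0.54 (SE 0.25, adjusted p = 0.318).

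The other 2 α1 genes were at or below the floor. CACNA1A, the pore of P/Q-type channels, had 0 to 2 reads per library, and CACNA1C, the Cav1.2 pore of heart and smooth muscle, had 0 reads in all 12 libraries. Of the L-type pore genes in the set, CACNA1D was thus the one detected. The annotated CACNA1C exons share 2.54% of their bases with antisense genes among those counted.

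Both β subunit genes were expressed at nearly the same level in the 3 lines. CACNB3, the β3 gene, had 47.3, 45, 48.0 and 49.5 CPM in the DU145KO samples, 46.5, 50.2, 46.0 and 47.1 CPM in those of DU145KO+vector and 49.4, 52.0, 46.4 and 43.3 CPM in those of DU145KO+α2. The 3 lines overlapped fully, and the log2 difference of DU145KO+α2 was 0.01 from DU145KO+vector (95% interval −0.14 to 0.16, adjusted p = 0.95, edgeR) and 0.01 from DU145KO (−0.14 to 0.16, adjusted p = 0.958). No sample left the range of 43.3 to 52.0 CPM. CACNB1, the β1 gene, had 12.5, 15.5, 17.5 and 14.8 CPM in the DU145KO samples, 12.6, 12.9, 14.2 and 13.4 CPM in those of DU145KO+vector and 11.4, 13.6, 14.7 and 13.8 CPM in those of DU145KO+α2. Its log2 difference in DU145KO+α2 was 0.01 from DU145KO+vector (−0.23 to 0.26, adjusted p = 0.96) and −0.17 from DU145KO (−0.41 to 0.07, adjusted p = 0.437).

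**Figure D2:**
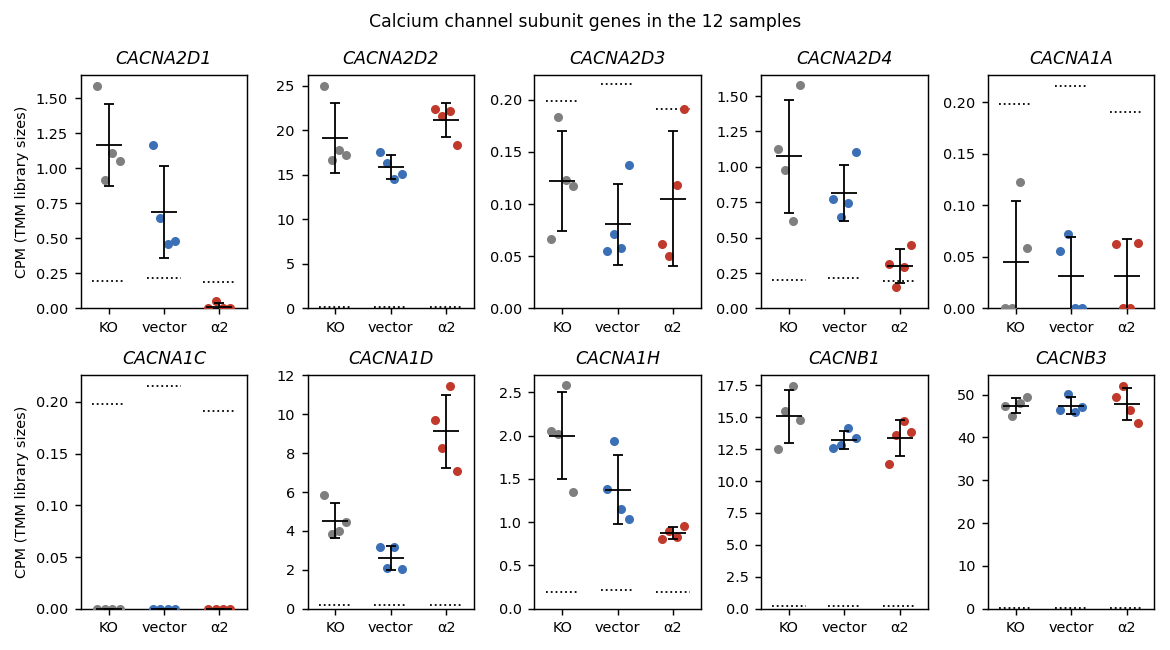
Level of each of the 10 subunit genes in CPM (vertical axis, own scale from 0 in each panel) in the 4 samples of DU145KO (KO), DU145KO+vector (vector) and DU145KO+α2 (α2). Points are samples, the black mark and bar are mean ± SD, and the dotted line is the highest floor of 3 counts in the line, which no sample of CACNA2D3, CACNA1A or CACNA1C exceeded. CACNA1D lay highest in the α2 samples (7.07 to 11.5 CPM), CACNA2D1, CACNA2D4 and CACNA1H lowest there, and CACNB1 and CACNB3 overlapped in all lines.

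Counted together, 7 of the 10 genes had enough reads for the test across 14732 genes, and CACNA2D3, CACNA1A and CACNA1C did not. A gene was called at a change above 2-fold and an adjusted p under 0.05. CACNA2D1 was picked for its level in DU145KO+α2 and is left out of the counts that involve that line, which leaves 6 genes. Between DU145KO+α2 and DU145KO+vector, 1 of the 6 was called higher (CACNA1D) and 1 lower (CACNA2D4), where 2.21% of all genes tested were called, 1.38% higher and 0.821% lower. Between DU145KO+α2 and DU145KO, 1 was called higher (CACNA1D) and 2 lower (CACNA2D4 and CACNA1H), where 2.1% of all genes were called, 0.428% higher and 1.67% lower. Both comparisons use the same DU145KO+α2 samples, and the lower call of CACNA2D4 carries the limit of its filter given above.

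Between DU145KO+vector and DU145KO none of the 7 was called by edgeR's quasi-likelihood test, where 0.835% of all genes were called, 0.0272% higher and 0.808% lower. At an unadjusted p under 0.05 there were 2, CACNA1D (0.00211) and CACNA1H (0.0448), where 15% of all genes tested had such a p. The median log2 fold change of the 6 genes other than CACNA2D1 was 0.01, −0.08 and −0.33 in the 3 comparisons in that order, and that of all genes tested was −0.01, −0.00 and −0.00. The set was chosen with results of these data known, and nothing particular to it is read from these counts and medians.

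**Figure D3:**
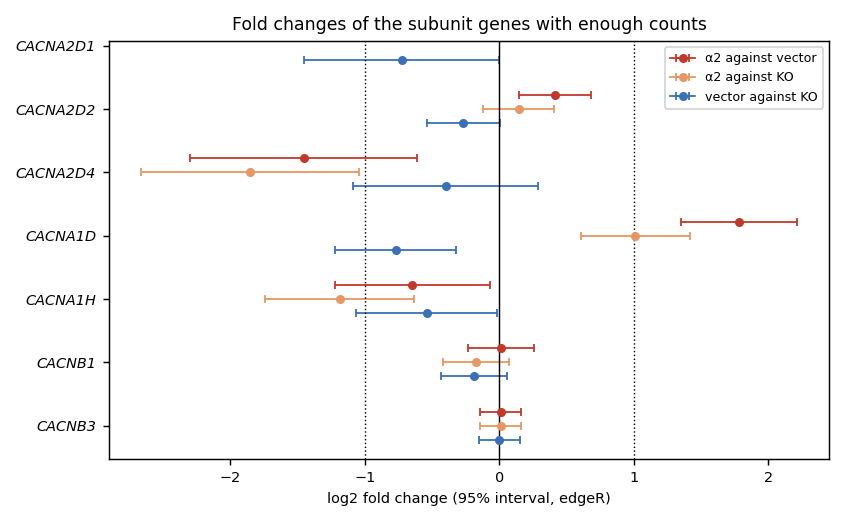
Log2 fold change with its 95% interval (horizontal axis, edgeR) of the 7 subunit genes with enough reads, for α2 (DU145KO+α2) against vector (DU145KO+vector), α2 against KO (DU145KO) and vector against KO. Dotted lines mark a 2-fold change. CACNA2D1 is drawn for vector against KO alone, because it was picked for its level in the α2 samples. CACNA1D lay at 1.78 and 1.01 in the α2 comparisons, CACNA2D4 at −1.45 and −1.85, and the intervals of CACNB1 and CACNB3 included 0.

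Levels of different genes were compared per length, in the authors' RPKM, which scale reads to gene length and library size. CACNB3 stood first in every line (14.5 ± 0.582 RPKM for DU145KO, 14.8 ± 1.27 for DU145KO+α2 and 14.6 ± 0.619 for DU145KO+vector, mean ± SD, n = 4). CACNB1 and CACNA2D2 came next, at 3.62 and 3.24 RPKM for DU145KO, 3.25 and 3.61 for DU145KO+α2 and 3.21 and 2.71 for DU145KO+vector, and their samples overlapped in the first 2 lines. CACNA1D came after these in each line, with 0.573, 1.17 and 0.334 RPKM. With exon lengths of the GENCODE annotation instead, CACNA1H passed CACNA1D in DU145KO+vector (0.160 against 0.136 RPKM). It stayed below CACNA1D in DU145KO (0.232 against 0.236) and in DU145KO+α2 (0.101 against 0.475). Thus the β and α2δ genes that lead the order were more abundant than any pore gene of the set.

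Below CACNA1D the order changed with the line. In DU145KO, CACNA1H (0.245 RPKM), CACNA2D4 (0.199) and CACNA2D1 (0.147) followed, each overlapping its neighbour. In DU145KO+vector the same order held, at 0.170, 0.153 and 0.0875 RPKM. In DU145KO+α2, CACNA1H (0.108) was separate from CACNA2D4 (0.0561), and CACNA2D1 (0.00159) came after CACNA2D3 (0.0286) and CACNA1A (0.00361), where counts of 0 to 3 per library do not give an order.

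**Figure D4:**
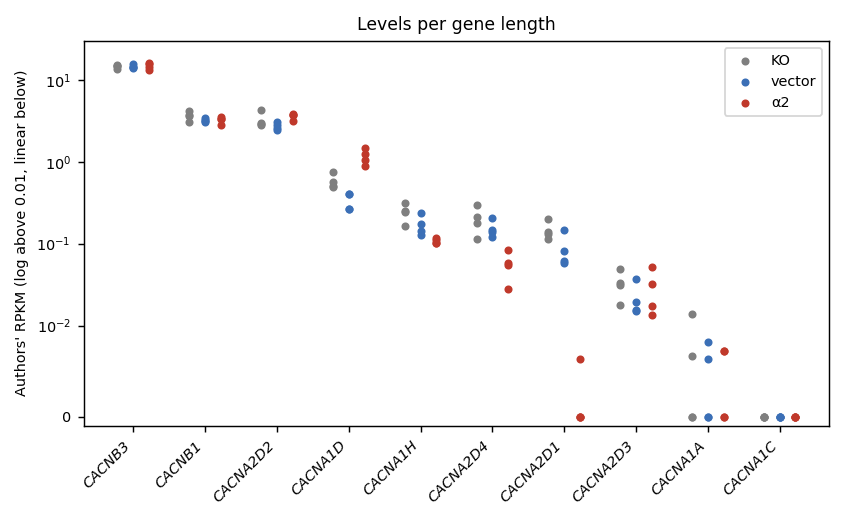
Level of the 10 subunit genes in the authors' RPKM (vertical axis, logarithmic above 0.01 and linear below it) in the 4 samples of each line, ordered by the mean in DU145KO. CACNB3 lay at 13.3 to 16.1 RPKM in all samples, and CACNA2D1 dropped from 0.0581 to 0.202 RPKM in the KO and vector samples to 0 to 0.00637 in the α2 samples.

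The rest of the channel family was read from a list of 16 further subunit genes. Of these, 10 exceeded the floor in at least 1 sample, 6 had enough reads for the test, and none was called in any of the 3 comparisons by edgeR's quasi-likelihood test. Over all genes tested 2.21%, 2.1% and 0.835% were called, in the order below, so nothing is read from the lack of calls among these 6. Their median log2 fold change was 0.10 for DU145KO+α2 against DU145KO+vector, 0.18 against DU145KO, and 0.17 for DU145KO+vector against DU145KO. Values of 5 of them are given below, named after their values were seen.

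CACNA1B, the N-type pore, was lower in DU145KO+α2, at 4.16, 4.90, 3.90 and 3.95 CPM, than in DU145KO (6.35, 5.93, 7.01 and 6.62 CPM) and DU145KO+vector (6.87, 6.46, 8.11 and 6.27 CPM). DU145KO+α2 lay below both without overlap, by less than 2-fold (log2 fold change −0.71, SE 0.14, adjusted p = 0.00258 against DU145KO+vector, edgeR, and −0.61, SE 0.14, adjusted p = 0.00967 against DU145KO). Of the γ subunit genes, CACNG8, whose product is also an auxiliary subunit of AMPA receptors, was higher in DU145KO+α2 than in DU145KO+vector by 0.87 (SE 0.22, adjusted p = 0.0165, edgeR), and its value against DU145KO was 0.54 (SE 0.22, adjusted p = 0.15). CACNG6 was higher than in DU145KO by 0.58 (SE 0.15, adjusted p = 0.0203), and its value against DU145KO+vector was 0.33 (SE 0.14, adjusted p = 0.161). Neither gene reached 2-fold.

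Pairing the samples by replicate number changed the call for 2 genes of this list. CACNA1F, the Cav1.4 pore of photoreceptors, had 13, 24, 14 and 11 reads in DU145KO+α2, 6, 6, 6 and 1 in DU145KO+vector and 9, 23, 13 and 4 in DU145KO. Its log2 fold change between DU145KO+α2 and DU145KO+vector was 1.57 (adjusted p = 0.0512, and 0.00439 with the block), and between DU145KO+vector and DU145KO −1.33 (adjusted p = 0.217, and 0.0333 with the block). Against DU145KO the value of DU145KO+α2 was 0.24 (adjusted p = 0.817, and 0.639 with the block). CACNB4, the β4 gene, had 6, 8, 6 and 5 reads in DU145KO+α2, 26, 13, 11 and 4 reads in DU145KO+vector and 11, 10, 11 and 7 reads in DU145KO. In CPM, DU145KO+α2 overlapped DU145KO+vector and lay below DU145KO. The log2 fold change was −1.19 against DU145KO+vector (adjusted p = 0.083, and 0.0227 with the block) and −0.72 against DU145KO (adjusted p = 0.39, and 0.188 with the block). The lower of the compared lines did not reach the filter's 0.608 CPM in any sample, DU145KO+vector for CACNA1F and DU145KO+α2 for CACNB4.

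Of 31 genes that bind or regulate the channels (among them the calmodulins, the STAC adaptors, the RGK GTPases and the thrombospondins that bind α2δ-1), 20 were tested and none was called in any comparison by edgeR's quasi-likelihood test. With 2.21%, 2.1% and 0.835% of all genes tested called, in the order below, nothing is read from the lack of calls among these 20. Their log2 fold changes ran from −0.51 to 0.67 for DU145KO+α2 against DU145KO+vector, from −0.85 to 0.41 against DU145KO, and from −0.59 to 0.35 for DU145KO+vector against DU145KO. GEM, an RGK GTPase that binds β subunits and restrains the channels, stood at the upper end of the first range (log2 fold change 0.67, SE 0.14, adjusted p = 0.00565, edgeR). RRAD, of the same GTPase family, stood at the lower end of the second (−0.85, SE 0.22, adjusted p = 0.0279). In the other DU145KO+α2 comparison GEM was at 0.36 (adjusted p = 0.138) and RRAD at −0.51 (adjusted p = 0.172). Also with an adjusted p under 0.05 in edgeR were CAMK2G (−0.29, adjusted p = 0.0205) in the first comparison and TMEM37 (−0.82, adjusted p = 0.00574) in the second. CAMK2D was so in the third (0.35, adjusted p = 0.0146). Of all genes tested, 11.9%, 8.17% and 2.34% had such a p. All these genes are named after their values were seen, and none reached 2-fold.

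Of 36 genes for other routes of calcium (store release, store-operated entry, pumps and exchangers), 23 were tested. ATP2C2, which encodes a calcium pump of the secretory pathway, was called lower than in DU145KO in both transfected lines. The DU145KO samples had 13.1, 12.5, 11.1 and 7.49 CPM, the DU145KO+vector samples 3.49, 4.60, 5.00 and 3.17 CPM, and the DU145KO+α2 samples 3.85, 3.85, 3.49 and 1.72 CPM. DU145KO lay above both lines without overlap (log2 fold change −1.76, SE 0.24, adjusted p = 0.00025 for DU145KO+α2, edgeR, and −1.44, SE 0.23, adjusted p = 0.00362 for DU145KO+vector). These comparisons share the DU145KO samples, and 1.67% and 0.808% of all genes tested were called lower in them, in that order. None of the 23 was called between DU145KO+α2 and DU145KO+vector by edgeR, where 2.21% of all genes tested were. At an adjusted p under 0.05 were 2 higher and 1 lower, named after their values were seen, where 11.9% of all genes had such a p. ATP2B4, a plasma membrane calcium pump, differed by 0.77 (SE 0.12, adjusted p = 0.000602, edgeR) and ATP2A2, the SERCA2 pump, by 0.58 (SE 0.11, adjusted p = 0.00199). ITPR3, of the same list, differed by −0.51 (SE 0.15, adjusted p = 0.0327). Against DU145KO the values of these genes were 0.42 (adjusted p = 0.0388), 0.27 (adjusted p = 0.151) and −0.63 (adjusted p = 0.0144) in that order. With the replicate number as a block, these adjusted p in edgeR were 0.05035, 0.00447 and 1.83e-08. DU145KO+vector differed from DU145KO by −0.35, −0.31 and −0.12.

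**Figure D5:**
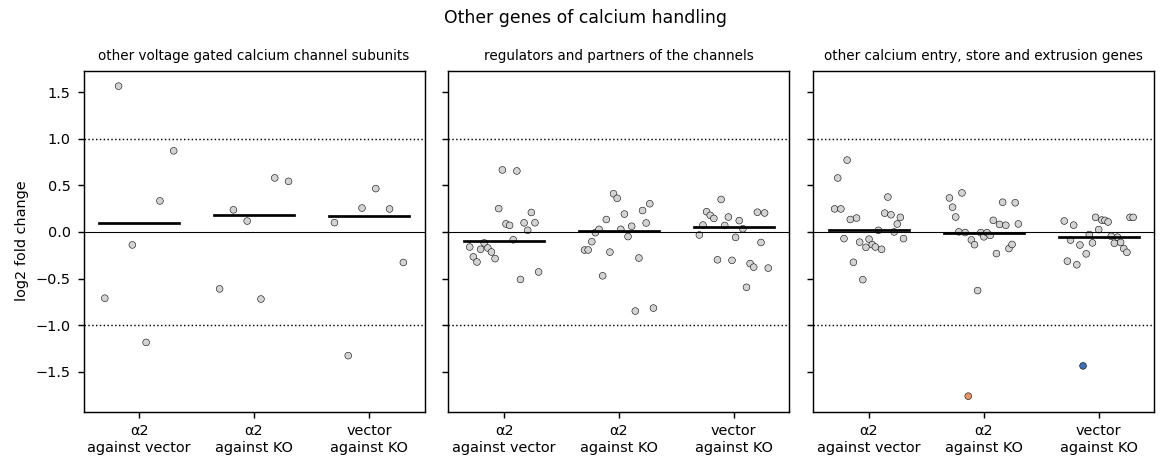
Log2 fold changes (vertical axis) of the tested genes of 3 lists, 6 other channel subunits, 20 regulators and partners and 23 other genes of calcium entry, store and extrusion, in the comparisons of α2 (DU145KO+α2), vector (DU145KO+vector) and KO (DU145KO). Points are genes, black bars are medians, dotted lines mark a 2-fold change and coloured points are genes called. The 2 coloured points are ATP2C2, at −1.76 and −1.44.

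The genes whose pattern over the 12 samples was most like that of CACNA2D1 were PKP1, SDC2, SYK, HOPX and SLC34A2. Likeness was the root mean square difference of log2 CPM after centring each gene, computed with a prior count of 2 and equal to 0.466, 0.489, 0.520, 0.532 and 0.555 for these genes, against a median of 1.447 over all others. PKP1, a desmosomal plakophilin, had mean CPM values of 0.356 for DU145KO+α2, 1.77 for DU145KO+vector and 2.48 for DU145KO. SYK, a cytoplasmic tyrosine kinase, had mean values of 1.55, 7.02 and 7.72 CPM in the same order. The choice of these genes fixes this order, and it depends on the scale, since 3 of the 5 were again among the nearest 5 with a prior count of 0.5 and 0 with log2 of RPKM + 0.1.

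The genes around CACNA2D1 and the 3 other genes called were read in a window added after the values were seen. Within 2 Mb of CACNA2D1, 5 genes were tested (GNAI1, SEMA3C, PCLO, SEMA3E and SEMA3A), and their median log2 fold change was 0.23 for DU145KO+α2 against DU145KO+vector and 0.30 against DU145KO. SEMA3E, a semaphorin gene with 8 to 96 reads, was called lower in the first comparison (−2.34) and higher in DU145KO+vector against DU145KO (2.64), and no other neighbour was called. Around CACNA1D, 42 genes were tested and none was called in any comparison by edgeR, with medians of 0.02 and 0.06. Around CACNA2D4, 21 were tested, of which SLC6A12 (5 to 26 reads) was called lower in both DU145KO+α2 comparisons (−1.41 against DU145KO+vector and −1.3 against DU145KO) and WNT5B (1 to 47 reads) higher against DU145KO+vector (2.01). Around CACNA1H, 100 were tested, of which WFIKKN1 (9 to 82 reads) was called higher in DU145KO+α2 in both comparisons (1.9 and 1.14) and CEMP1 (4 to 20 reads) lower than in DU145KO (−1.43). In these 2 comparisons the medians over the tested genes of chromosome 7, which holds CACNA2D1, were 0.02 and 0.03. Those of chromosome 3, which holds CACNA1D, were −0.03 and −0.03. Of all genes tested, 2.21% and 2.1% were called in these comparisons and 0.835% between DU145KO+vector and DU145KO. Nothing is read from the few calls among neighbours.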

How the data were processed

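Total RNA of the 12 spheroid samples had been sequenced after a stranded mRNA library preparation. Reads were called by the authors with bcl2fastq 1.8.4, aligned to hg38 with TopHat2 2.1.0 and counted per gene with Subread 1.5.0, keeping unique alignments; the strand setting is not given in the sources used here. The authors deposited raw read counts per gene and RPKM values after TMM scaling. The length scaling is not stated, but each RPKM value tested equalled its count over a factor per sample and a length per gene, within 2.78e-07 on the log2 scale over 15940 genes. In all, 42 rows without a symbol carried their gene ID.

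From the counts, edgeR 4.0.16 in R 4.3.3 was used with TMM scaling, filterByExpr at a minimum count of 10 and a robust two-sided quasi-likelihood test over all 12 samples. P-values were adjusted by Benjamini-Hochberg over the 14732 genes tested. A call needed a change above 2-fold and an adjusted p under 0.05. The authors tested with voom and limma, run here (limma 3.58.1) as an alternative, as was DESeq2 1.42.0. The test was also run on simulated counts, where only genes with more reads than CACNA2D4 and CACNA1H were changed and no replicate effect was set. That check does not cover such scarce genes or paired samples. Named were the 10 subunit genes, ITGA2, genes called in 3 lists of calcium genes, and the 5 genes most like CACNA2D1; others are marked where they appear. The genes and lists were chosen with earlier results of these data known. Sequences and positions came from RefSeq and GENCODE version 44.

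Replicate numbers came from the sample titles. Samples with the same number deviated together from their line means in all 12 pairs (r = 0.135 to 0.554, across genes). Pairs with different numbers had a mean r of −0.126 and a highest r of 0.149, above the lowest r with the same number. The numbers were taken to pair the samples, and a fit with the number as a block was run. The authors describe the replicates as independent biological replicates. Replicates of a line differed beyond sampling noise (chi-square per degree of freedom 7.39 to 25.4). Total counts per sample, 13948734 to 19988111, left the scarcest of these genes with few reads. The intervals of the CACNA2D1 ratios cover counting error only.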

Additional observations from a re-analysis of the deposited data

Results flagged for a closer look

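Among 39 groups of 4 samples examined, 2 held a sample far from the others by Dixon's criterion, where chance alone gives about 1.95. For CACNA2D1 in DU145KO+α2, the gap of replicate 2 to the nearest sample was 1 times the group's range, because its single read (0.05 CPM) stood against 0 reads in the other replicates, all under the floor of 3 counts. For CACNA2D2 in DU145KO, replicate 1 stood apart with a gap of 0.856 of the range (25.0 CPM, against 16.6 to 17.8 CPM in the other 3). On leaving out that sample and every other in turn, the log2 fold change of CACNA2D2 between DU145KO+α2 and DU145KO ran from 0.08 to 0.31.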

How the results depend on the processing

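Genes called over the whole table numbered 325 (DU145KO+α2 against DU145KO+vector), 309 (DU145KO+α2 against DU145KO) and 123 (DU145KO+vector against DU145KO). With at least 10 counts in every sample, which left 13421 genes, they numbered 178, 160 and 61. That filter left 5 of the 10 subunit genes, without CACNA2D1 and CACNA2D4, and 1 and 2 of these 5 were called in the first 2 comparisons. At an adjusted p under 0.05 with any fold change, genes called over the whole table numbered 1754, 1203 and 344. With the replicate block, DU145KO+vector against DU145KO gave 218 genes, and the block changed no call among the 10 subunit genes. Leaving out each sample in turn gave 79 to 196 genes there, the lowest without DU145KO+vector replicate 3 and the highest without replicate 1. In that comparison 0 subunit genes were called on leaving out any sample.

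The changes that turned direction were all close to 0. CACNB3 in DU145KO+vector against DU145KO, at −0.00, was 0.000919 with DESeq2 size factors, 0.00185 with library size alone, 0.000312 by DESeq2, 0.0033 without the filter and 0.0016 with the compared lines alone, and −0.0283 to 0.0202 on leaving out samples. Leaving out samples gave CACNB3 values of −0.0328 to 0.0554 for DU145KO+α2 against DU145KO+vector and −0.0334 to 0.0550 against DU145KO, and CACNB1 values of −0.0289 to 0.0858 in the first of these. CACNA2D4 there ran from −1.70 to −1.21 and CACNA1D against DU145KO from 0.90 to 1.16. The CACNA2D1 ratio ran from 36.0 to 54.7 for DU145KO+vector over DU145KO+α2; leaving out DU145KO+α2 replicate 2 gave no ratio, since no read remained. With exon lengths of the annotation, 8, 8 and 6 of the 10 genes kept their place in the order of levels in DU145KO, DU145KO+α2 and DU145KO+vector. CACNA2D1, CACNA2D4 and CACNA1H rest on at most 42 reads a library, which limits what can be read from them.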
